A study of Homo sapiens with 16 samples.

Results

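Ribosome biogenesis starts in the nucleolus, where RNA polymerase I transcribes the ribosomal RNA (rRNA) precursor, and 36 genes of this machinery were followed here across LN229 cells in ischemic and regular culture. They were listed by name and not picked by a measured value, but earlier results of these data were known at the time. All 36 were listed in both experiments, among 13559 genes in experiment 1 and 14024 in experiment 2. By role they are 7 genes of RNA polymerase I transcription, 3 of the box C/D ribonucleoprotein, 4 of the box H/ACA ribonucleoprotein and its trafficking, 11 of small subunit processing, 6 of large subunit processing and 5 other nucleolar proteins.

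LN229 is an established human glioblastoma cell line, and unmodified LN229 cells were used in all 16 libraries. Experiment 1 compared ischemic with regular culture without any added agent (groups ischemic and regular). Experiment 2 added the vehicle DMSO, the p38 inhibitor VX745 or MK25, an inhibitor of the p38 target kinase MAPKAPK2, in either culture, which gave the groups regular DMSO, regular VX745, regular MK25, ischemic DMSO, ischemic VX745 and ischemic MK25. Each of the 8 groups held 2 libraries. Regular culture was serum-supplemented DMEM. Per the study's methods, ischemic culture combined hypoxia with low glucose, low glutamine and less serum, so the parts of these factors cannot be told apart. The labels give neither the time in ischemic culture nor the inhibitor concentrations, and all libraries come from this single cell line, so other glioblastoma cells were not measured.

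In the nucleolus the polymerase I enzyme, its initiation factor RRN3 and the upstream binding factor UBTF make the rRNA precursor. Small nucleolar RNAs then guide its modification in box C/D particles, which add methyl groups through fibrillarin (FBL), and in box H/ACA particles, which make pseudouridine through dyskerin (DKC1). Assembly factors trim and fold the precursor with ribosomal proteins into small and large subunits. The whole pathway consumes much of the energy and nucleotides of a growing cell and is known to be enlarged in many tumours.

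Between 20122017 and 37562668 reads per library fell on the listed genes. Levels are given as the deposited log2 normalized CPM (read counts scaled to the size of the library), and differences as log2 fold changes of these values. Fold changes, standard errors (SE) and p-values came from limma, with Benjamini-Hochberg adjustment over all genes of a comparison, and a gene was called at an adjusted p under 0.05. The labels do not say whether the 2 libraries of a group came from separate cultures, so p-values measure the spread between these libraries, which may be technical. In RNA from a whole culture, fewer cells that express a gene and less RNA per cell cannot be told apart, and a level is a share of the library and not an amount per cell. All 8 glioma markers were listed, from VIM at 53351 to 193045 reads per library to the astrocytic marker GFAP at 21 to 55. They did not move alike in ischemic culture, where VIM (1.38 in experiment 1 and 1.27 with DMSO) and EGFR (1.17 and 0.80) were called higher and SOX2 (-3.11 and -2.23), NES (-1.37 and -1.06), OLIG2 (-1.68 and -0.81) and S100B (-0.85 and -0.39) lower. CD44 was called higher with DMSO (0.317) and not in experiment 1 (0.034). GFAP was called lower in experiment 1 (-0.785) and not with DMSO (-0.391). The summed level of the 8 glioma markers, mostly VIM, was 4528 to 4583 normalized CPM in regular and 8167 to 8319 in ischemic libraries of experiment 1, and 4028 to 4362 in regular DMSO and 7121 to 7138 in ischemic DMSO. Of 6 markers of other cell types, PTPRC, CD3E, PECAM1, CDH5 and EPCAM were listed in neither experiment. The macrophage marker CD68 was listed in all libraries at 546 to 2093 reads and was called higher in ischemic culture, from 4.47 and 4.54 to 5.18 and 5.37 in experiment 1 (0.77) and from 4.92 and 5.07 to 5.94 and 5.92 with DMSO (0.94). The part of these marker changes in the results for the 36 members was not tested. Of the members, POLR1C, NHP2, HEATR1, BYSL, BOP1, NOP16 and GNL3 each overlap another listed gene, whose reads could not be set apart in these unstranded libraries.

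Most of the machinery was lower in ischemic culture. In experiment 1, 28 of the 36 members were lower and 2 were higher, where 35.2% of all genes were called lower and 35.2% higher, and the median log2 fold change was -0.57 over the members and -0.01 over all genes. With DMSO, 27 members were lower and 4 higher, against 35.2% and 34.4% of all genes, with a median of -0.45. Of the 28 and 27 lower members, 25 were lower in both experiments (89.3% and 92.6% of the lists). In addition, 1 was higher in both (PES1) and 0 were called in opposite directions. The same overlap was not counted over all genes, so these shares have no background to set them against. Pearson's r between the changes of the 36 members in these experiments, which share the cell line and its library kit but no library, was 0.69, and 0.86 over the 35 members other than RRN3. On plain CPM scaling, an alternative chosen after seeing the data, the median of all genes lay at -0.18 in experiment 1 and at -0.23 with DMSO. The members' median lay 0.56 below that of all genes in experiment 1 and 0.44 below it with DMSO. These distances could not change, because this scaling moves all genes of a comparison by the same amount. The calls with DMSO became 30 lower and 0 higher, where 49.05% of all genes were then called lower and 23.2% higher.

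**Figure D1:**
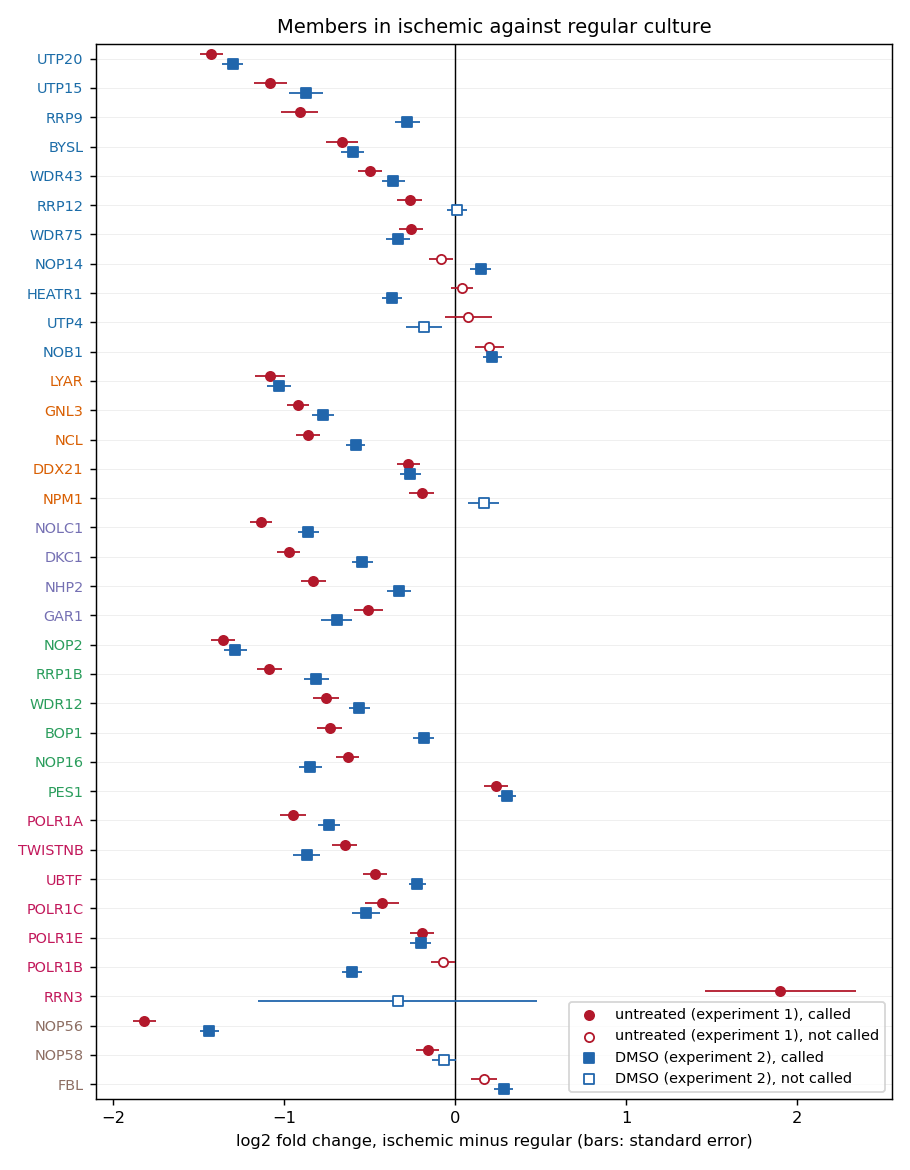
Log2 fold change (ischemic minus regular) of each member, with its SE, in untreated cells of experiment 1 (red circles) and with DMSO in experiment 2 (blue squares). Filled symbols passed an adjusted p under 0.05, label colours mark the 6 roles, and most points lie left of 0, with NOP56 at -1.82 and -1.44 and PES1 right of 0 in both.

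Each ischemic library showed the shift. Relative to the regular mean, the median over the members was -0.59 and -0.54 in the 2 ischemic libraries of experiment 1, which had 31 and 30 members below that mean. Relative to the regular DMSO mean, it was -0.44 and -0.52 in the ischemic DMSO libraries, -0.76 and -0.64 in ischemic VX745, and -0.81 and -0.82 in ischemic MK25. The regular libraries with VX745 stood at -0.08 and -0.03 and those with MK25 at -0.05 and -0.07. No regular library overlapped any ischemic library in this median.

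**Figure D2:**
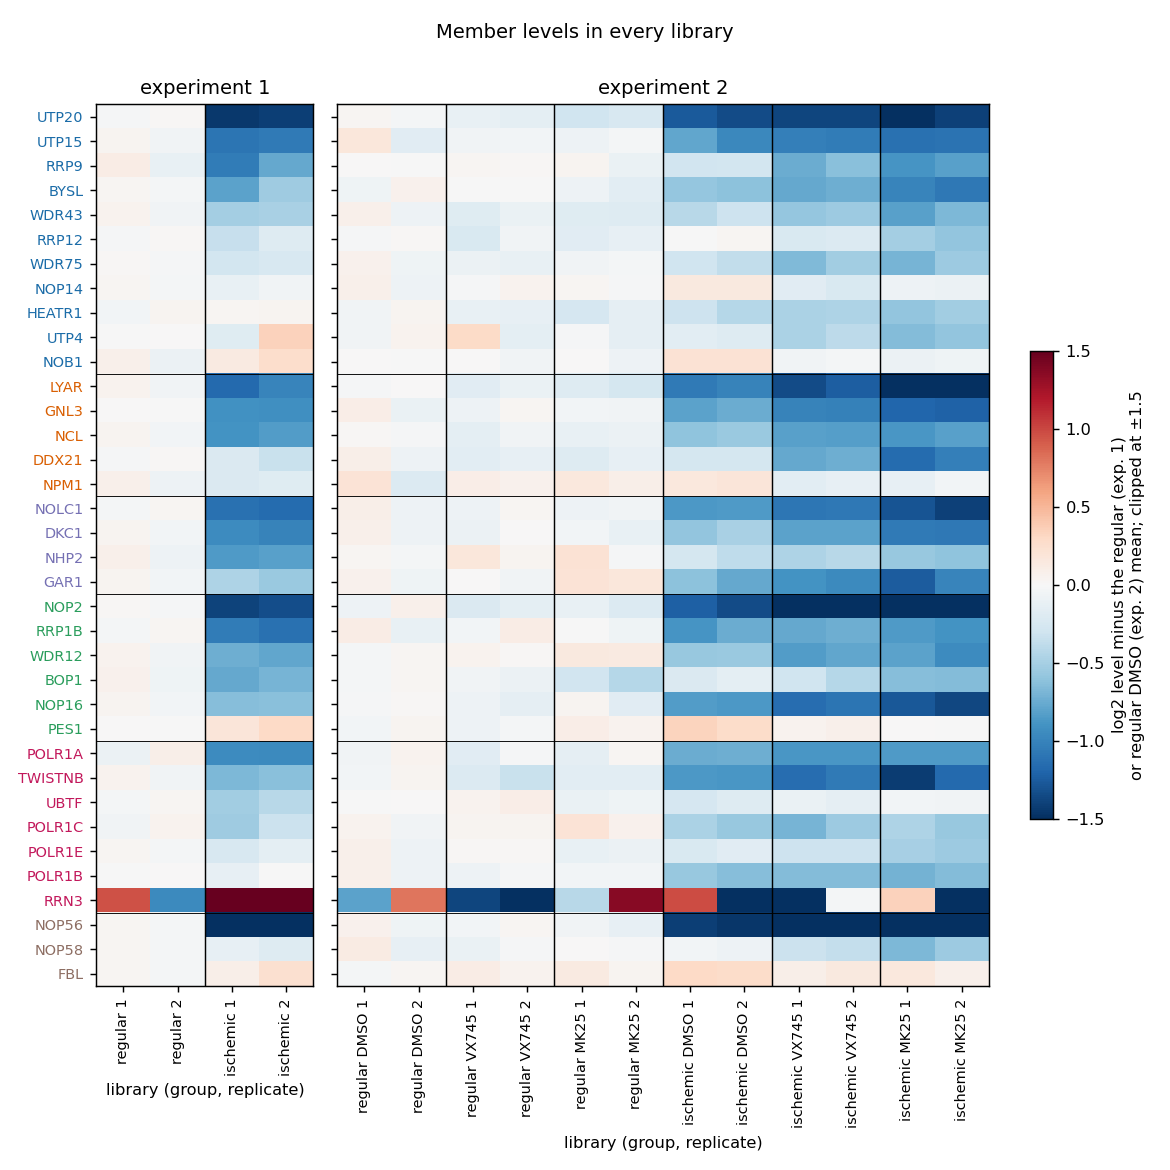
Log2 level of each member (rows, label colours mark the 6 roles) in each of the 16 libraries (columns), minus the mean of the regular libraries in experiment 1 or of the regular DMSO libraries in experiment 2. Blue cells are lower and red cells higher, the scale is clipped at 1.5 in either direction, and the ischemic columns are blue for most rows while RRN3 changes between replicates of the same group.

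Among the polymerase I genes, 5 of 7 were lower and 1 was higher in experiment 1, and 6 of 7 were lower with DMSO. POLR1A, which encodes the largest catalytic subunit of the enzyme, stood at 7.02 and 7.18 in the regular libraries and at 6.16 and 6.14 in the ischemic libraries. The groups did not overlap, and POLR1A changed by -0.95 (SE 0.08, adjusted p = 2.63e-07), to 51.8% of its regular level. In experiment 2 it was at 7.04 and 7.14 with DMSO in regular culture and at 6.35 and 6.36 in ischemic culture, a change of -0.74 (SE 0.07, adjusted p = 1.97e-08). The second-largest subunit behaved differently between the experiments. POLR1B was at 7.13 and 7.14 in regular and 7.0 and 7.12 in ischemic libraries of experiment 1, a difference of -0.07 (adjusted p = 0.383), whereas with DMSO it went from 7.21 and 7.06 to 6.57 and 6.49, a change of -0.61 (adjusted p = 6.56e-08). The difference between the experiments was not tested. Of the smaller subunits, TWISTNB (also called POLR1F) changed by -0.65 in experiment 1 and -0.87 with DMSO, POLR1C by -0.43 and -0.52 and POLR1E by -0.19 and -0.20.

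UBTF, which binds the promoter and body of the rRNA genes and keeps them open, was at 7.58 and 7.64 in the regular and at 7.08 and 7.19 in the ischemic libraries of experiment 1. The change was -0.47 (SE 0.07, adjusted p = 5.67e-05). With DMSO it went from 7.50 and 7.51 to 7.25 and 7.32, a change of -0.22 (SE 0.05, adjusted p = 0.000864).

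RRN3, the factor that joins polymerase I to the promoter complex, was the least reliable member. Its 115 and 87 reads in the ischemic libraries of experiment 1 stood against 52 and 14 in the regular libraries, and its log2 levels were 2.09 and 2.07 against 1.13 and -0.78. It was called higher by 1.90 (SE 0.44, adjusted p = 0.0021), but its regular replicates lay far apart, the value was 0.95 without regular replicate 2 and 2.86 without regular replicate 1, and the call was lost without a variance trend (adjusted p = 0.0526). In experiment 2 it had 27 and 68 reads in regular DMSO and 77 and 13 in ischemic DMSO, 14 and 9 in regular VX745 and 14 and 47 in ischemic VX745, and 24 and 94 in regular MK25 and 73 and 14 in ischemic MK25. In each of these pairs the levels of the regular and ischemic groups overlapped, and RRN3 was not called in any comparison of experiment 2. RRN3 has 4 annotated pseudogenes, of which RRN3P3 was listed with 53 to 125 reads per library, and it overlaps PDXDC1, so its reads are uncertain.

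The box C/D and box H/ACA proteins divided within and between particles. NOP56, a core scaffold protein of the box C/D particle (chr20:2652632-2658393, GRCh38), had the largest fall of the 36 members in both experiments. Its level was 8.49 and 8.43 in the regular and 6.68 and 6.59 in the ischemic libraries, a change of -1.82 (SE 0.07, adjusted p = 3.2e-10), to 28.3% of the regular level. With DMSO it fell from 8.52 and 8.39 to 7.04 and 7.0, a change of -1.44 (SE 0.06, adjusted p = 4.26e-13). The small nucleolar RNA gene SNORD110 lies within the NOP56 gene and was listed as well, so reads of the overlap cannot be assigned with certainty.

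Its partners in the same particle did not show a change of that size. NOP58, the paralogous scaffold protein, was at 7.45 and 7.39 in regular and 7.29 and 7.22 in ischemic libraries, a change of -0.16 (adjusted p = 0.0485) that lost its call without ischemic replicate 2 (-0.13), regular replicate 1 (-0.13) or regular replicate 2 (-0.19). With DMSO NOP58 stood at 7.51 and 7.26 against 7.34 and 7.30, a difference of -0.06 (adjusted p = 0.433). The methyltransferase FBL went the other way. It was at 6.58 and 6.52 in regular and 6.64 and 6.80 in ischemic libraries of experiment 1 (0.17, adjusted p = 0.0615), and at 6.56 and 6.61 against 6.88 and 6.86 with DMSO, where it was called higher by 0.28 (SE 0.06, adjusted p = 0.000242). On plain CPM scaling this change of FBL was 0.06 and was not called.

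All 4 box H/ACA genes were lower in both experiments. DKC1, the pseudouridine synthase, went from 7.83 and 7.75 to 6.85 and 6.79 in experiment 1, a change of -0.97 (SE 0.07, adjusted p = 7.85e-08), and from 7.75 and 7.59 to 7.08 and 7.18 with DMSO, a change of -0.54 (adjusted p = 5.03e-07). NHP2, a core protein of the same particle, was at 7.49 and 7.33 against 6.56 and 6.60 in experiment 1 (-0.83, adjusted p = 6.97e-07) and at 7.50 and 7.45 against 7.20 and 7.08 with DMSO (-0.33, adjusted p = 0.000505). In each of these contrasts the regular and ischemic libraries did not overlap. GAR1, which completes the particle, stood at 5.29 and 5.21 in regular and 4.79 and 4.69 in ischemic libraries, a change of -0.51 (adjusted p = 0.000192), and at 4.97 and 4.84 against 4.29 and 4.14 with DMSO, a change of -0.69 (adjusted p = 2.88e-06). NOLC1, a nucleolar phosphoprotein that chaperones both kinds of particle, changed by -1.14 and -0.86.

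The small subunit group had 7 of 11 members lower and 0 higher in experiment 1, and 7 lower and 2 higher with DMSO. UTP20, a large scaffold protein of the small subunit processome (chr12:101280105-101386618), showed the largest fall. Its levels of 7.01 and 7.04 in regular culture compared with 5.58 and 5.62 in ischemic culture, a change of -1.43 (SE 0.07, adjusted p = 3.23e-09), and with DMSO 7.03 and 6.97 compared with 5.74 and 5.66 (-1.30, SE 0.06, adjusted p = 3.9e-12). The replicates of each group lay close together, far from those of the other culture. UTP15 changed by -1.08 and -0.87, and BYSL, needed for late small subunit maturation, by -0.66 and -0.60. The processome proteins WDR43 and WDR75 were called lower in both experiments, at -0.50 and -0.36 and at -0.26 and -0.33. HEATR1, another early factor, was called lower with DMSO (-0.37) and not in experiment 1 (0.04), RRP12, an export factor, in experiment 1 (-0.27) and not with DMSO (0.01), and UTP4 in neither (0.08 and -0.18).

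RRP9, a protein of the U3 particle that starts cleavage of the precursor, was at 5.57 and 5.36 in regular and 4.42 and 4.70 in ischemic libraries, a change of -0.91 (SE 0.11, adjusted p = 1.02e-05). With DMSO it was at 5.50 and 5.49 against 5.21 and 5.22, a smaller change of -0.28 (SE 0.07, adjusted p = 0.00198). The nuclease NOB1, which makes the last cut of the small subunit rRNA, was among the few that were higher with DMSO. It stood at 5.88 and 5.87 in regular DMSO and 6.09 and 6.09 in ischemic DMSO, a change of 0.22 (adjusted p = 0.00263), and at 5.73 and 5.57 against 5.78 and 5.91 in experiment 1 (0.20, adjusted p = 0.0512). NOP14 was at 6.32 and 6.17 against 6.40 and 6.40 with DMSO, a call of 0.15 (adjusted p = 0.0359) that 7 of 12 alternatives did not keep, and at 6.33 and 6.26 against 6.18 and 6.24 in experiment 1 (-0.08, adjusted p = 0.324). On plain CPM scaling the changes with DMSO were -0.01 for NOB1 and -0.07 for NOP14, so their direction rests on the scaling, and NOP14 also overlaps the listed antisense gene NOP14-AS1, whose reads an unstranded library cannot set apart.

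In the large subunit group 5 of 6 members were lower and 1 was higher in both experiments. NOP2, an rRNA cytosine methyltransferase (chr12:6556871-6568291), went from 7.07 and 7.04 to 5.67 and 5.73 in experiment 1, a change of -1.36 (SE 0.07, adjusted p = 5.2e-09), and from 7.15 and 7.30 to 6.0 and 5.88 with DMSO, a change of -1.29 (adjusted p = 2.76e-11). RRP1B changed by -1.09 and -0.81 and NOP16 by -0.63 and -0.85.

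PES1, BOP1 and WDR12 form the PeBoW complex, which is needed to process the large subunit precursor, and its 3 members did not move alike. BOP1 was at 6.90 and 6.78 in regular and 6.07 and 6.15 in ischemic libraries (-0.73, adjusted p = 2.14e-06), and at 6.76 and 6.81 against 6.57 and 6.64 with DMSO (-0.19, adjusted p = 0.0151). The call with DMSO was lost without ischemic DMSO replicate 1 (-0.15) or regular DMSO replicate 2 (-0.16). WDR12 was at 6.26 and 6.17 against 5.48 and 5.44 in experiment 1 (-0.76, adjusted p = 2.08e-06) and at 6.09 and 6.15 against 5.55 and 5.57 with DMSO (-0.56, adjusted p = 4.22e-07). PES1 was higher instead. It stood at 7.69 and 7.68 in regular and 7.87 and 7.98 in ischemic libraries (0.24, SE 0.07, adjusted p = 0.00718), and at 7.58 and 7.67 against 7.96 and 7.90 with DMSO (0.30, SE 0.05, adjusted p = 6.16e-05). The first of these calls was lost without ischemic replicate 2 (0.18), and on plain CPM scaling the changes were 0.07 and 0.08 and neither was called.

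All 5 other nucleolar proteins were lower in experiment 1 and 4 of 5 with DMSO. NCL, or nucleolin, an abundant protein that binds nascent rRNA, went from 10.34 and 10.27 to 9.41 and 9.47 in experiment 1, a change of -0.86 (SE 0.07, adjusted p = 3.32e-07). With DMSO it went from 10.35 and 10.32 to 9.72 and 9.77, a change of -0.58 (SE 0.06, adjusted p = 4.55e-08), again with no overlap between cultures. LYAR, a growth-regulating nucleolar protein, changed by -1.08 and -1.03 and GNL3, or nucleostemin, by -0.92 and -0.77. DDX21, an RNA helicase that couples polymerase I transcription to processing (chr10:68956170-68985068), fell less. It was at 8.66 and 8.68 in regular and 8.46 and 8.34 in ischemic libraries (-0.27, adjusted p = 0.00314), and at 8.63 and 8.47 against 8.29 and 8.28 with DMSO (-0.26, adjusted p = 0.000948).

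NPM1, or nucleophosmin, a histone and ribosome chaperone, gave no stable direction. It was at 10.16 and 10.01 in regular and 9.87 and 9.91 in ischemic libraries (-0.20, adjusted p = 0.0339), a call lost without ischemic replicate 1 (-0.18), ischemic replicate 2 (-0.21) or regular replicate 1 (-0.12). With DMSO it stood at 10.36 and 9.94 in regular and 10.31 and 10.33 in ischemic libraries (0.17, adjusted p = 0.108), where the regular replicates lay on either side of the ischemic ones, and quantile normalization turned this difference to -0.28. NPM1 has 50 annotated pseudogenes, 0 of them listed, so its reads may be shared.

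**Figure D3:**
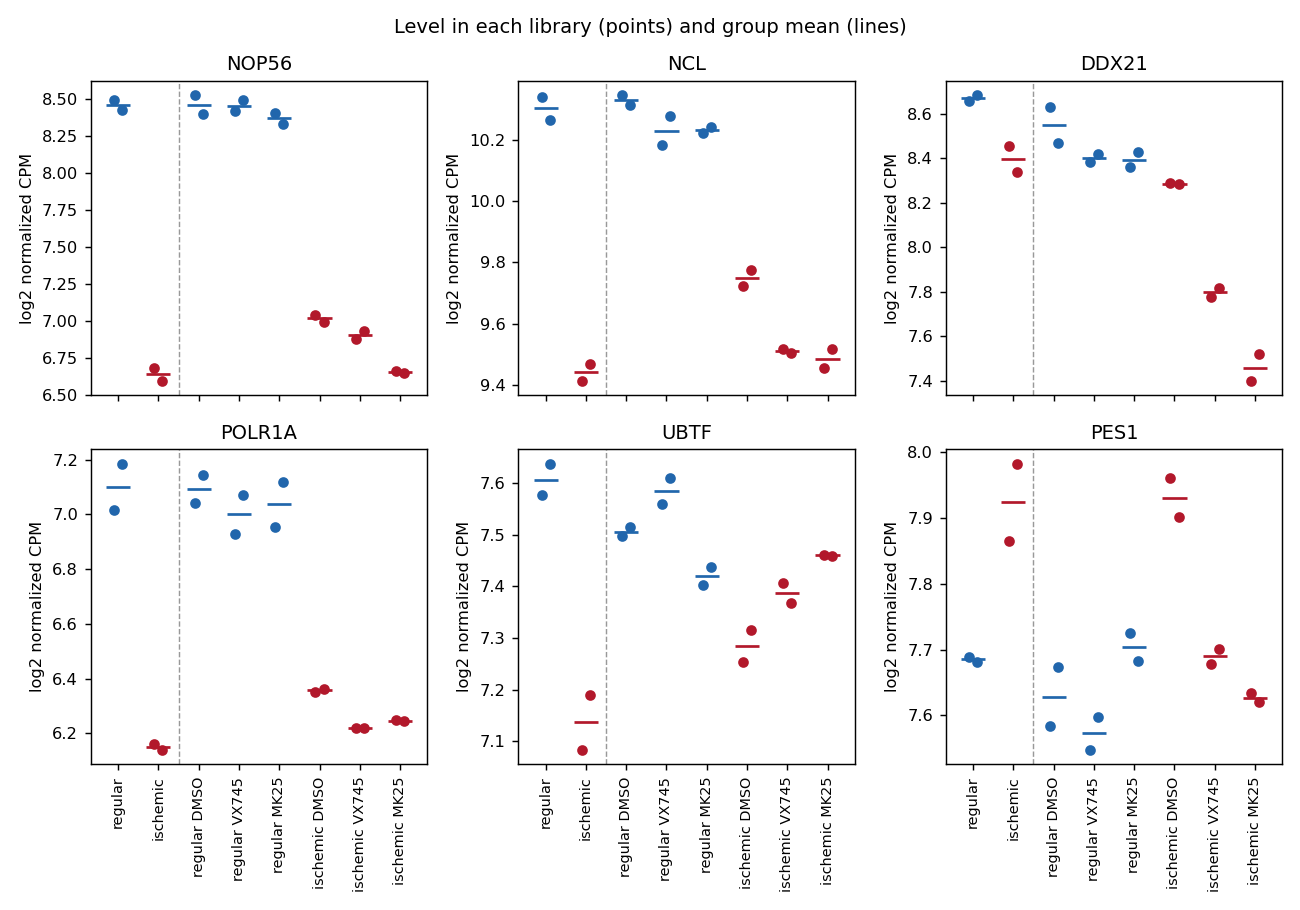
Log2 normalized CPM in each library (points) and the mean of each group (lines) for 6 members, with experiment 1 left of the dashed line and experiment 2 right of it, regular culture in blue and ischemic culture in red. Each panel has its own vertical scale, NOP56, NCL and POLR1A separate the cultures in all groups, DDX21 falls from 8.29 and 8.28 in ischemic DMSO to 7.40 and 7.52 in ischemic MK25, and PES1 is highest in the ischemic and ischemic DMSO libraries.

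In ischemic culture both inhibitors were accompanied by a further decrease of many members. With VX745, 21 of 36 were lower and 0 higher than with DMSO, where 14.9% of all genes were called lower and 14.0% higher, and the median change was -0.23. With MK25, 29 were lower and 1 higher, against 22.0% and 19.8% of all genes, and the median was -0.34. For comparison, the median of ischemic against regular culture with DMSO was -0.45. At a fold change of at least 1.5 there were 0 members called with VX745 and 1 with MK25. Of all 14024 genes, 127 were lower and 610 higher at this fold change with VX745, and 371 and 985 with MK25. The comparisons share the ischemic DMSO libraries, so they are not independent of each other or of the ischemic comparison with DMSO.

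The counts with the inhibitors depended on the scaling of the libraries. On plain CPM scaling the median of all genes rose to 0.12 with VX745 and 0.13 with MK25. The members called became 1 higher and 3 lower with VX745 and 1 higher and 22 lower with MK25. Of all genes, 25.8% were then called higher and 5.16% lower with VX745, and 32.5% and 10.8% with MK25. This scaling moves all genes of a comparison by the same amount. The distance of the members' median from that of all genes, -0.24 with VX745 and -0.34 with MK25, therefore could not change. The VX745 count fell to between 10 and 13 when any of its 4 libraries was left out (13 without ischemic DMSO replicate 1, 11 without ischemic DMSO replicate 2, 10 without ischemic VX745 replicate 1 and 11 without ischemic VX745 replicate 2).

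DDX21 showed the largest called change with either inhibitor. From 8.29 and 8.28 in ischemic DMSO it went to 7.78 and 7.82 in ischemic VX745 and to 7.40 and 7.52 in ischemic MK25, with no overlap between the 3 groups. The change was -0.49 (SE 0.06, adjusted p = 2.25e-05) with VX745 and -0.83 (SE 0.06, adjusted p = 2.91e-08) with MK25, the latter to 56.3% of the DMSO level. It was the member called at a fold change of at least 1.5.

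Of the 11 small subunit members, 6 were lower with VX745 and 10 with MK25, and on plain CPM scaling 2 and 6. RRP9 went from 5.21 and 5.22 to 4.75 and 4.87 with VX745 (-0.41, adjusted p = 0.00047) and to 4.61 and 4.68 with MK25 (-0.57, adjusted p = 8.13e-06). NOP14, which helps to assemble the small subunit processome, went from 6.40 and 6.40 to 6.08 and 6.02 with VX745 (-0.35, adjusted p = 0.000477) and to 6.17 and 6.16 with MK25 (-0.23, adjusted p = 0.0057). The VX745 libraries thus lay below the MK25 libraries for NOP14 and above them for RRP9, and neither of these differences between inhibitors was tested. RRP12 changed by -0.23 and -0.56 and NOB1, at 5.83 and 5.85 with VX745 and 5.79 and 5.81 with MK25, by -0.26 and -0.29. UTP20, which had fallen most of this group in ischemic culture, was at 5.62 and 5.62 with VX745 (-0.08, adjusted p = 0.363) and 5.46 and 5.60 with MK25 (-0.17, adjusted p = 0.0358). The call with MK25 was lost in 7 of 12 alternatives, among them without ischemic DMSO replicate 1 (-0.13), ischemic DMSO replicate 2 (-0.20) or ischemic MK25 replicate 1 (-0.10), and was -0.04 on plain CPM scaling.

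The small nucleolar RNA proteins were lower with MK25 in all 7 cases and with VX745 in 4. On plain CPM scaling 0 were called with VX745, and MK25 lowered 2 of 3 box C/D and 3 of 4 box H/ACA genes. NOP58 went from 7.34 and 7.30 to 7.06 and 7.02 with VX745 (-0.28, adjusted p = 0.00688) and to 6.71 and 6.83 with MK25 (-0.55, adjusted p = 1.28e-05). DKC1 went from 7.08 and 7.18 to 6.87 and 6.87 with VX745 (-0.26, adjusted p = 0.00502) and to 6.62 and 6.60 with MK25 (-0.52, adjusted p = 5.66e-06). In both genes the 3 ischemic groups did not overlap. NOP56 stood at 6.88 and 6.93 with VX745 (-0.11, adjusted p = 0.14) and at 6.67 and 6.65 with MK25 (-0.36, adjusted p = 8.47e-05). GAR1 was at 4.01 and 3.96 with VX745 (-0.23, adjusted p = 0.064) and at 3.66 and 3.91 with MK25 (-0.43, adjusted p = 0.00123). NHP2 was at 7.01 and 7.05 with VX745 (-0.11, adjusted p = 0.238) and at 6.90 and 6.87 with MK25 (-0.26, adjusted p = 0.00736). FBL, higher in ischemic DMSO than in regular DMSO, was lower again at 6.68 and 6.74 with VX745 (-0.16, adjusted p = 0.0372) and 6.74 and 6.67 with MK25 (-0.17, adjusted p = 0.0259). These calls of FBL were not stable. That with VX745 was lost in 7 of 12 alternatives, including the omission of any of the 4 libraries (-0.19 to -0.14), and that with MK25 in 6 of 12, including the omission of ischemic DMSO replicate 1 (-0.15), ischemic DMSO replicate 2 (-0.18) or ischemic MK25 replicate 2 (-0.13). The changes of FBL on plain CPM scaling were -0.04 and -0.04 (adjusted p = 0.593 and 0.642). Of the calls named for the other small nucleolar RNA proteins, that of NHP2 with MK25 and that of NOP58 with VX745 were each lost in 4 of 12 alternatives and that of DKC1 with VX745 in 2 of 12.

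In the large subunit group 5 of 6 members were lower with each inhibitor, and RRP1B was the member not called with either (0.06 with VX745 and -0.06 with MK25). On plain CPM scaling 0 of 6 were lower with VX745 and 5 of 6 with MK25, so the VX745 count rests on the scaling. PES1 returned from 7.96 and 7.90 to 7.68 and 7.70 with VX745 (-0.24, adjusted p = 0.00253) and to 7.63 and 7.62 with MK25 (-0.30, adjusted p = 0.000208), close to its level in the regular DMSO libraries. BOP1 was at 6.49 and 6.36 with VX745 (-0.18, adjusted p = 0.0416) and 6.15 and 6.13 with MK25 (-0.46, adjusted p = 2.45e-05). The call of BOP1 with VX745 was lost in 6 of 12 alternatives, among them without ischemic DMSO replicate 1 (-0.22), ischemic DMSO replicate 2 (-0.14) or ischemic VX745 replicate 2 (-0.11), and was -0.06 on plain CPM scaling. WDR12 was at 5.28 and 5.34 with VX745 (-0.25, adjusted p = 0.00712) and 5.32 and 5.17 with MK25 (-0.31, adjusted p = 0.000766). NOP2 was at 5.68 and 5.64 with VX745 (-0.28, adjusted p = 0.0063) and 5.62 and 5.47 with MK25 (-0.40, adjusted p = 0.000242). The VX745 calls of NOP2, WDR12 and PES1 were lost in 3, 2 and 2 of 12 alternatives.

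Among the nucleolar proteins all 5 were lower with each inhibitor, and on plain CPM scaling 1 with VX745 and 4 with MK25. NCL was at 9.52 and 9.50 with VX745 (-0.24, adjusted p = 0.00366) and 9.46 and 9.52 with MK25 (-0.26, adjusted p = 0.00103). NPM1 was at 9.99 and 10.03 with VX745 (-0.31, adjusted p = 0.0155) and 10.03 and 10.11 with MK25 (-0.25, adjusted p = 0.0349), but quantile normalization gave 0.00 and 0.04, so its calls rest on the scaling. Quantile normalization also ended the calls of NCL, at -0.05 and -0.01.

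As deposited, the polymerase I genes had the smallest share of lower calls with either inhibitor. VX745 lowered 1 of the 7 (TWISTNB, -0.24) and MK25 lowered 2 (TWISTNB, -0.43, and POLR1E, -0.32). On plain CPM scaling 0 were lower and 1 higher with VX745, and 2 lower and 1 higher with MK25. POLR1A was at 6.22 and 6.22 with VX745 (-0.14, adjusted p = 0.124) and 6.25 and 6.25 with MK25 (-0.11, adjusted p = 0.191), and POLR1B at 6.48 and 6.48 (-0.05, adjusted p = 0.573) and at 6.42 and 6.48 (-0.08, adjusted p = 0.315). UBTF was the single member that was called higher with an inhibitor as deposited. It went from 7.25 and 7.32 in ischemic DMSO to 7.41 and 7.37 with VX745 (0.10, adjusted p = 0.139) and to 7.46 and 7.46 with MK25 (0.18, SE 0.05, adjusted p = 0.0105).

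**Figure D4:**
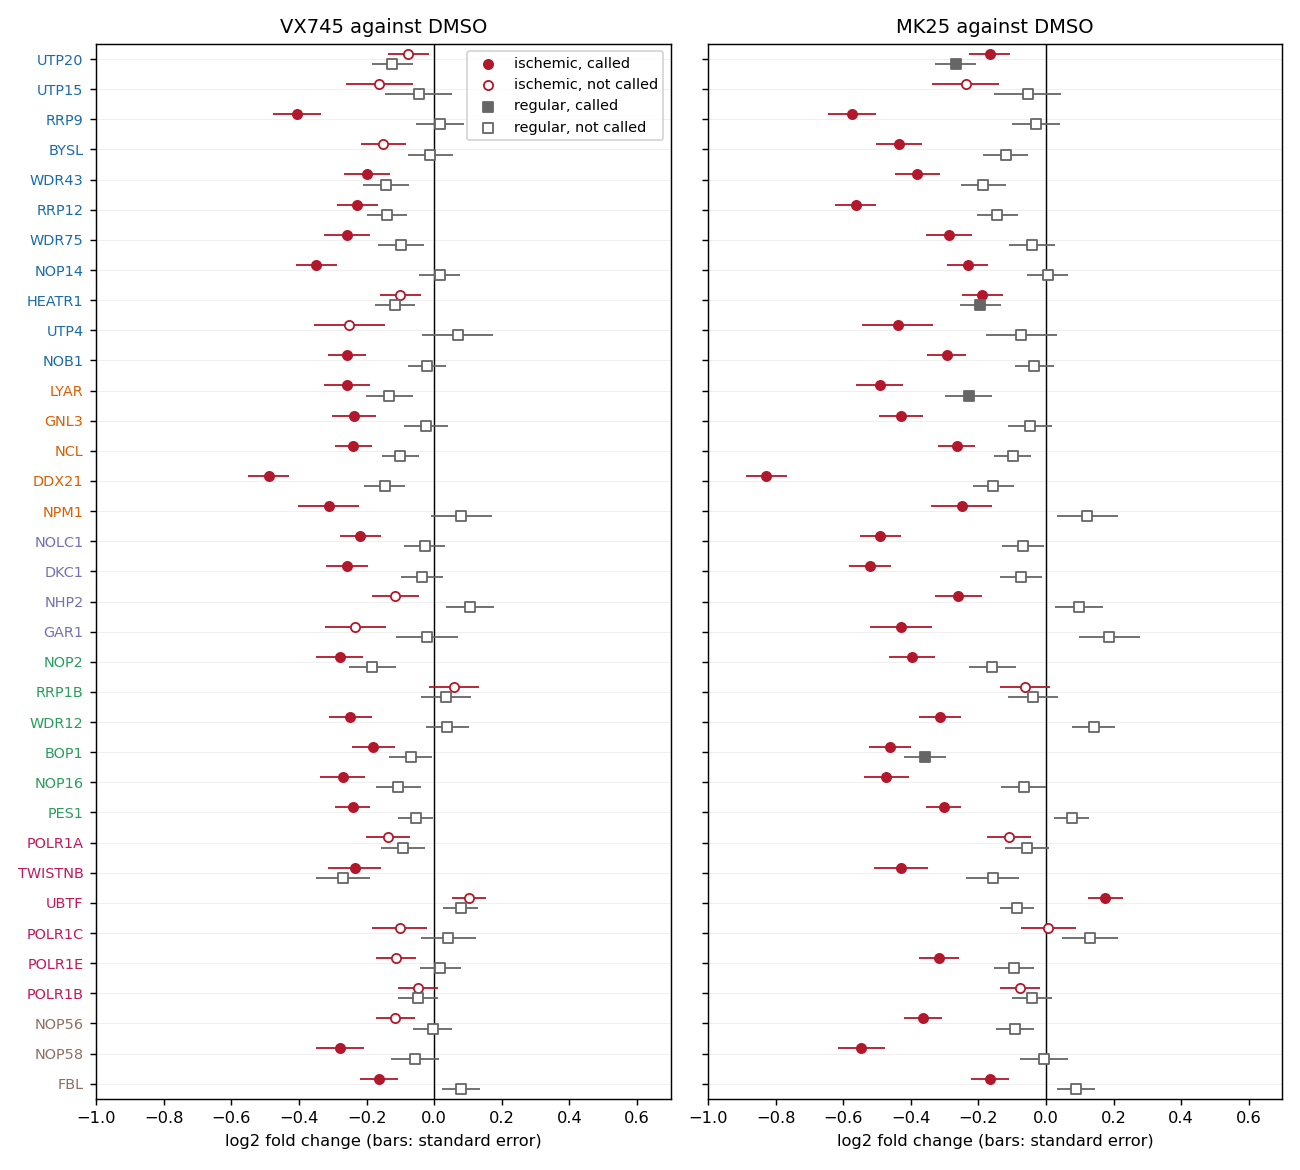
Log2 fold change of each member, with its SE, for VX745 (left) and MK25 (right) against DMSO, in ischemic culture (red circles) and in regular culture (grey squares). Filled symbols passed an adjusted p under 0.05, label colours mark the 6 roles, RRN3 is not drawn because its SE of 0.81 would set the scale, and the red points lie left of the grey ones for most members, with DDX21 at -0.83 for MK25 in ischemic culture.

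In regular culture few members differed from DMSO. With VX745, 0 of 36 were called by limma, where 0.157% of all genes were called lower and 0.178% higher. The median was -0.04, 5 members had an unadjusted p under 0.05, and voom on the recovered reads also called 0. With MK25, 4 members were lower and 0 higher, against 5.21% and 7.0% of all genes, with a median of -0.06. These were BOP1 (6.76 and 6.81 with DMSO and 6.50 and 6.36 with MK25, -0.36, adjusted p = 0.0012), UTP20 (7.03 and 6.97 against 6.70 and 6.76, -0.27, adjusted p = 0.00797), LYAR (-0.23, adjusted p = 0.0381) and HEATR1 (-0.19). The members lowered by MK25 in regular culture were thus 11.1% of the 36, and 1 member was called without regular MK25 replicate 1. The largest differences with VX745 in regular culture were those of RRN3 (-1.58, adjusted p = 0.377) and TWISTNB (-0.27, adjusted p = 0.132), with UBTF at 7.56 and 7.61 against 7.50 and 7.51 (0.08, adjusted p = 0.483).

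Whether an inhibitor acted differently in the cultures was tested by the interaction, the change in ischemic culture minus the change in regular culture. For VX745, 4 members had a lower and 0 a higher interaction, against 6.0% and 5.78% of all genes, with a median of -0.14. For MK25, 17 were lower and 1 higher, against 13.9% and 10.5% of all genes, with a median of -0.27. On plain CPM scaling these counts were 2 lower and 0 higher for VX745 and 11 lower and 1 higher for MK25. Of all genes, 2.47% were then called lower and 12.1% higher for VX745, and 7.50% and 19.7% for MK25. The VX745 count was 8 without regular DMSO replicate 1, 2 without ischemic DMSO replicate 1 or ischemic VX745 replicate 2, and 1 without ischemic VX745 replicate 1 or regular DMSO replicate 2. The MK25 count was 11 in all without ischemic DMSO replicate 1.

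The MK25 interaction was largest for DDX21, at -0.67 (SE 0.09, adjusted p = 3.8e-05). In regular culture DDX21 was at 8.63 and 8.47 with DMSO and 8.36 and 8.43 with MK25 (-0.16, adjusted p = 0.104), whereas in ischemic culture the change was -0.83. GAR1 followed at -0.62 (adjusted p = 0.00231), with 4.97 and 4.84 in regular DMSO and 5.11 and 5.08 in regular MK25, a difference of 0.19 that was opposite in sign to that in ischemic culture. RRP9 had an interaction of -0.55 (adjusted p = 0.000888) with regular levels of 5.50 and 5.49 against 5.54 and 5.39. NOP58 had -0.54 (adjusted p = 0.000911) with regular levels of 7.51 and 7.26 against 7.38 and 7.37, where the DMSO libraries spanned the MK25 ones. All 3 box C/D and all 4 box H/ACA genes had a lower interaction with MK25, compared with 4 of 11 in the small subunit group, 3 of 6 in the large subunit group, 3 of 5 nucleolar proteins and 0 of 7 polymerase I genes. On plain CPM scaling these were 1 of 3, 3 of 4, 2 of 11, 3 of 6, 2 of 5 and 0 of 7. Differences between roles were not tested. As deposited, 73 of 82 cytosolic ribosomal protein genes were lower and 1 higher in this interaction. Of 49 other large subunit genes, 24 were lower and 1 higher. UBTF had the single higher interaction (0.26, SE 0.07, adjusted p = 0.0134), with 7.50 and 7.51 in regular DMSO and 7.40 and 7.44 in regular MK25.

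The difference between cultures was also taken within each inhibitor. With VX745, 31 members were lower in ischemic than in regular culture and 0 higher, against 32.6% and 34.0% of all genes, with a median of -0.64. With MK25, 29 were lower and 0 higher, against 33.7% and 33.5%, with a median of -0.77. There were 24 members that were lower in all 4 comparisons of ischemic with regular culture, which were POLR1A, POLR1C, POLR1E, TWISTNB, NOP56, DKC1, NHP2, GAR1, NOLC1, BOP1, WDR12, NOP2, NOP16, RRP1B, NCL, GNL3, LYAR, DDX21, UTP20, UTP15, BYSL, WDR43, WDR75 and RRP9. The largest of these changes with MK25 was again that of NOP56, from 8.40 and 8.33 to 6.67 and 6.65 (-1.71, adjusted p = 7.78e-14). How many of all genes were lower in all 4 comparisons was not counted. The higher level of PES1 in ischemic culture was not called in the presence of VX745 (0.12, adjusted p = 0.059) or MK25 (-0.08, adjusted p = 0.204), and UBTF, at 7.46 and 7.46 against 7.40 and 7.44, did not differ beyond the spread with MK25 (0.04, adjusted p = 0.508).

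Other genes of the pathway were counted from lists drawn up by function, against the 35.2% of all genes called lower in either experiment. In experiment 1, 27 of 40 other small subunit genes were lower and 2 higher (median -0.44), and 28 of 48 other large subunit genes were lower and 7 higher (median -0.26). Of the genes of the RNA exosome and RNase MRP, which trim the precursor, 13 of 18 were lower and 1 higher (median -0.50). With DMSO 29 of 41 other small subunit genes were lower and 3 higher (median -0.39), whereas the medians of the other lists were smaller, with 23 of 49 other large subunit genes lower and 7 higher (-0.15) and 11 of 18 exosome and RNase MRP genes lower and 2 higher (-0.27). NOL6, a small subunit processome protein, changed by -1.66 and LTV1, a late small subunit factor, by -1.31. The largest change among large subunit factors was that of RRS1 at -1.79, followed by URB2 at -1.47, and in the last list POP1 of RNase MRP changed by -1.38 and the exosome subunit EXOSC4 by -1.03.

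Of 13 other polymerase I genes, 7 were lower and 3 higher in experiment 1, with a median of -0.21. POLR1G, an accessory subunit of the enzyme, changed by -1.61, and POLR2L, a subunit shared by the nuclear polymerases, by -1.28. The other nuclear polymerases were measured for comparison. Of 10 polymerase III subunits 4 were lower and 3 higher (median 0.06), with POLR3K at -1.85, and of 7 polymerase II subunits 5 were lower and 0 higher (median -0.24), with POLR2B at -0.60 and POLR2C at -0.49.

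The ribosomal protein genes differed between the comparisons of culture. Among the cytosolic ribosomal protein genes, 30 of 81 were higher and 10 lower in experiment 1 (37.0% and 12.3%, median 0.13), where 35.2% of all genes were called in either direction. With DMSO 68 of 82 were higher and 5 lower (82.9% and 6.1%, median 0.48), against 34.4% and 35.2% of all genes. In ischemic against regular culture, 14 were higher and 12 lower with VX745 (median 0.04), and 6 were higher and 17 lower with MK25 (median -0.04). Plain CPM scaling gave 6 higher and 19 lower in experiment 1 (median -0.04, with all genes at -0.18). With DMSO it gave 58 higher and 9 lower (median 0.25, with all genes at -0.23). Of all genes, 26.7% were then called higher and 44.8% lower in experiment 1, and 23.2% and 49.05% with DMSO. The direction of this list in experiment 1 thus rests on the scaling. The 2 genes with the largest change in experiment 1 were exceptions, RPS26 at -2.01 and RPL22L1 at -1.12. With the inhibitors in ischemic culture this list went in the same direction as the members. With VX745 70 of 82 were lower and 1 higher (median -0.32), against 14.9% and 14.0% of all genes. With MK25 75 were lower and 0 higher (median -0.37), against 22.0% and 19.8%. On plain CPM scaling 40 were lower and 1 higher with VX745, against 5.16% and 25.8% of all genes. With MK25 58 were then lower and 0 higher, against 10.8% and 32.5%. In regular culture 0 were called with VX745 (median 0.14), and 16 were higher and 1 lower with MK25 (median 0.19). Of all genes, 7.0% were called higher and 5.21% lower with MK25 in regular culture. For other small and other large subunit genes, VX745 in ischemic culture lowered 17 of 41 and 22 of 49 (medians -0.16 and -0.19) and MK25 lowered 26 and 35 (medians -0.25 and -0.24). On plain CPM scaling VX745 gave 5 lower and 1 higher of the small subunit genes and 6 lower and 3 higher of the large subunit genes. MK25 then gave 14 lower and 3 higher, and 19 lower and 1 higher. The VX745 counts of these lists thus depended on the scaling.

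**Figure D5:**
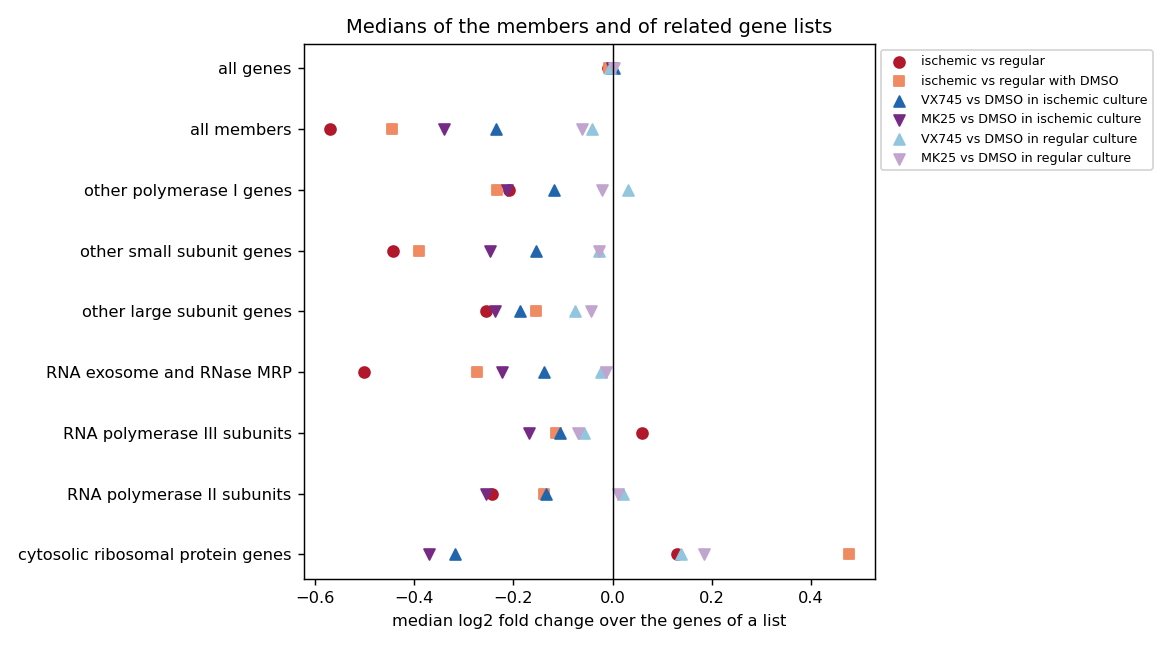
Median log2 fold change over all genes, over the 36 members and over the lists of related genes (vertical axis) in 6 comparisons (symbols). All genes lie near 0, the members lie at -0.57 in experiment 1 and -0.45 with DMSO, and the cytosolic ribosomal protein genes lie at 0.13 (-0.04 on plain CPM scaling) and 0.48 in the same comparisons and at -0.32 and -0.37 with the inhibitors in ischemic culture.

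Since many members moved together, their promoters were searched for 3 short motifs. RefSeq windows (GRCh38.p14) from 250 bases before to 50 bases after the transcription start held 30 of the 36 members in 38 windows, since 8 members have 2 annotated starts in the table. The E-box CACGTG, the sequence bound by MYC and related factors, was found in the windows of 13 of 30 members (43.3%), compared with 12.4% of 11142 genes listed in the experiments and 8.77% of 27305 genes with a window. The ETS core CCGGAAG was found in 9 of 30 (30.0%), compared with 21.6% of the listed genes, and the NRF1 core GCATGCGC in 2 of 30 (6.67%), compared with 6.32%. A gene was counted if any of its windows held the motif. Taken by window, the E-box was in 13 of 38 member windows (34.2%) and in 7.26% of all 35116 windows, and DDX21, GAR1, GNL3 and LYAR held it in 1 of their 2 windows. Both strands were searched, and overlaps between matches of different motifs were not counted. The members with an E-box were BYSL, DDX21, FBL, GAR1, GNL3, LYAR, NOP14, NOP2, PES1, RRP9, UTP20, UTP4 and WDR43. Their median change in experiment 1 was -0.51, ranging from -1.43 to 0.24, and that of the 17 members with a window but no E-box was -0.63, ranging from -1.82 to 1.90.

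The E-box was thus present both in members that fell most and in members that did not fall. To show this, 120 bases from 70 before to 50 after the start are given, 5′ to 3′ on the strand of the gene with the E-box in capitals, for the 3 E-box holders with the lowest changes in experiment 1 (UTP20 at -1.43, NOP2 at -1.36 and LYAR at -1.08) and the 3 with the highest (PES1 at 0.24, FBL at 0.17 and UTP4 at 0.08). The windows are chr12:101280035-101280154 (plus strand) for UTP20, chr12:6568242-6568361 (minus) for NOP2, chr4:4289972-4290091 (minus) for LYAR, chr22:30591861-30591980 (minus) for PES1, chr19:39846330-39846449 (minus) for FBL and chr16:69132579-69132698 (plus) for UTP4.
UTP20: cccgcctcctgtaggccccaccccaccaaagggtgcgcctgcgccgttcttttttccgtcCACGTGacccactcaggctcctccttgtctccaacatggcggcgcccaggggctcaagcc
NOP2: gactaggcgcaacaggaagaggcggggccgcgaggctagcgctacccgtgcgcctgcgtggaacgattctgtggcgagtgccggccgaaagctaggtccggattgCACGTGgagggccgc
LYAR: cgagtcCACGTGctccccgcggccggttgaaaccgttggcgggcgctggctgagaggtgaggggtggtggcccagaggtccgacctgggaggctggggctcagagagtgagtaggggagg
PES1: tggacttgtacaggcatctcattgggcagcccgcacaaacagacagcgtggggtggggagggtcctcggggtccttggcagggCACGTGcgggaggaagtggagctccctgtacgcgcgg
FBL: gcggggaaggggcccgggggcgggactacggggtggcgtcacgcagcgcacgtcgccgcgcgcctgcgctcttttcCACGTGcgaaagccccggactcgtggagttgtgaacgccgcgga
UTP4: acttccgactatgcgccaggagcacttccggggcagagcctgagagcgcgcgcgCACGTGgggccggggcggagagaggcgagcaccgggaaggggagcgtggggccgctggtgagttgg
The first base of the E-box lay 10 bases before the start in UTP20, 64 before it in LYAR and 16 before it in UTP4. For LYAR this is counted from the start whose window is shown, and the window of its other start held no E-box. In NOP2, PES1 and FBL it lay within the transcribed part, at base 36, 14 and 7 counted from the start. A match is a string of letters, and binding was not measured in these libraries.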

How the data were processed

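RNA of LN229 cells was sequenced in 2 experiments (4 and 12 libraries, 2 per group), from SMART-Seq mRNA HT and Nextera XT libraries that do not mark the strand. Per the labels and the study's methods, the authors worked in Galaxy, where trimmed reads were mapped to GRCh38 with HISAT2 and compared with edgeR. The counting tool is not given in the sources used here. The deposited values are log2 normalized CPM per gene, with Entrez identifiers, and were tested as deposited, with no further pseudocount or filter. Of these identifiers, 99.4% and 99.3% matched a RefSeq symbol.

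Undoing the logarithm placed 100% of the values of each library on whole reads (tolerance 0.05 reads), which gave the read counts. Differences were tested with limma 3.58.1 in R 4.3.3, with 1 mean per group, a variance trend and two-sided p-values adjusted by Benjamini-Hochberg over all genes, at an adjusted p under 0.05. There were 10 comparisons (ischemic against regular culture untreated and with each agent, the 2 inhibitors against DMSO within either culture, and 2 interactions). The count test of the study's methods needs counts and was not run on log2 values, and voom weights on the recovered reads served as an alternative. The fit was run on simulated counts with the same dispersion for every gene and few changed genes. These settings differ from the data, so that run does not measure how the fit performs on them. The other alternatives were median centring, quantile normalization, a mean of at least 1 CPM, no variance trend, only the groups compared, a fold change of at least 1.5, the replicate block, leaving out each library, and plain CPM scaling, which was chosen after seeing the data. At a depth of 20122017 to 37562668 reads, RRN3 had 9 to 115 reads per library. The cause of the spread between its replicates was not tested, and read counts cover counting error only.

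The members, the lists and the tests were chosen with earlier results of these data known. Every member is counted, and values in each library are given for core members of each role, for the largest rises and falls of each comparison, and for interactions and minority directions, at most 6 each. For each related list the 2 genes with the largest change in experiment 1 are named, except that 1 item is not reported here.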

Additional observations from a re-analysis of the deposited data

Results flagged for a closer look

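The interaction test, the change with an inhibitor against DMSO in ischemic culture minus that in regular culture, marked 4 members for VX745 and 18 for MK25 by limma with Benjamini-Hochberg adjustment over all genes. For VX745 the interaction was -0.43 for RRP9, -0.36 for NOP14, -0.34 for DDX21 and -0.29 for WDR12 (adjusted p = 0.0452, a call that 12 of 16 alternatives did not keep). The call was lost in 6 of 16 alternatives for DDX21, in 3 of 16 for NOP14 and in 1 of 16 for RRP9. In regular culture the VX745 changes of these genes were 0.02, 0.02, -0.15 and 0.04.

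For MK25 the interaction was -0.67 for DDX21, -0.62 for GAR1, -0.55 for RRP9 and -0.54 for NOP58, followed by -0.46 for WDR12, -0.45 for DKC1, -0.42 for NOLC1, -0.42 for RRP12, -0.41 for NOP16, -0.38 for GNL3 and -0.38 for PES1. Smaller values were -0.37 for NPM1, -0.36 for NHP2, -0.32 for BYSL, -0.27 for NOP56, -0.26 for NOB1 and -0.25 for FBL. UBTF had the single positive value, 0.26. The call was lost in 10 of 16 alternatives for NPM1 (adjusted p = 0.042), in 8 of 16 for FBL and for NOB1, in 7 of 16 for NOP56, in 5 of 16 for NHP2 and in 1 of 16 for UBTF. The alternatives were not recomputed gene by gene for NOLC1, RRP12, NOP16, GNL3 and BYSL. All of these interactions use the same DMSO libraries. The median interaction of all genes was 0.01 for VX745 and 0.002 for MK25 as deposited, and 0.122 and 0.135 on plain CPM scaling. The part of that scaling in these interactions was measured only as the counts given with the results.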

How the results depend on the processing

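Counts of called members kept within 1.5 times their value in 110 of 137 recomputations. At a fold change of at least 1.5 the counts were 19 in experiment 1, 14 with DMSO and 20 with VX745 for ischemic against regular culture. They were 0 with VX745 and 1 with MK25 in ischemic culture, 0 with MK25 in regular culture, and 0 and 2 for the VX745 and MK25 interactions. Over all genes, lower and higher, there were 2734 and 2886 of 13559 in experiment 1. Of 14024 genes there were 2506 and 2537 with DMSO and 2029 and 2598 with VX745 for ischemic against regular culture. MK25 in regular culture gave 85 and 264 of all genes, the VX745 interaction 103 and 330 and the MK25 interaction 495 and 618. For the members, plain CPM scaling gave 4 for VX745 in ischemic culture and 2 for its interaction. That interaction count was 7 with median centring, 2 with quantile normalization and 1 without a variance trend. MK25 in regular culture gave 2 without a variance trend or with only the groups compared. Leaving out each library gave 27 to 30 in experiment 1, 28 to 31, 29 to 31 and 29 to 30 with DMSO, VX745 and MK25, 10 to 13 and 24 to 28 for VX745 and MK25 in ischemic culture, 0 to 1 (1 without regular DMSO replicate 1) and 1 to 4 in regular culture, and 1 to 8 and 11 to 20 for the interactions. With 1 library left in a group, it is assumed to vary like the others. Direction reversed for NOB1 (-0.006) and NOP14 (-0.073) with DMSO under plain CPM scaling, and for NPM1 under quantile normalization (-0.277 with DMSO, 0 with VX745, 0.035 with MK25). The cause was not tested. Recomputed single-gene values and medians numbered 2794 together. Of these, 2575 kept their side of the threshold or, for a median, stayed within the replicate spread. Single-gene calls were lost in 153 and gained in 44, direction reversed in 5, and 17 medians moved.

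The replicate numbers did not pair the libraries (correlation of deviations 0.185 in experiment 1 and -0.104 to 0.178 in experiment 2). With the replicate block the counts were 30 in experiment 1, 31, 31 and 30 with DMSO, VX745 and MK25, 21 and 30 for VX745 and MK25 in ischemic culture, 0 and 4 in regular culture, and 4 and 18 for the interactions.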
